A study of Arabidopsis thaliana with 7 samples.

Results

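The TOC1 and pseudo-response regulator (PRR) family of the Arabidopsis thaliana circadian clock has 5 members: TOC1 (AT5G61380), PRR3 (AT5G60100), PRR5 (AT5G24470), PRR7 (AT5G02810) and PRR9 (AT2G46790). Binding of the clock protein CCA1 at these genes was read from chromatin immunoprecipitation followed by sequencing (ChIP-seq). A peak was counted for a member when the authors named that gene as the nearest promoter or in their annotation of the peak. Peaks assigned to AT5G02811, beside PRR7, and to AT2G46787, beside PRR9, were included. This gave 8 of the 1433 peaks in continuous light and 8 of the 1607 peaks in light-dark cycles.

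The plants were seedlings of the WS-2 ecotype that carried CCA1 fused to green fluorescent protein (GFP) under the CCA1 promoter, and chromatin was precipitated with an antibody against GFP. Seedlings were 14 d old, were entrained in a cycle of 12 h light followed by 12 h dark, and were taken whole at ZT2, where ZT (zeitgeber time) counts hours from dawn. They were either in continuous light after that entrainment (LL, 3 libraries) or still in the cycles (LD, 2 libraries). An LL library of ZT14 and an input library were not analysed here. Each regime was deposited as 1 list of peaks from pooled libraries, so no value has a spread between replicates and no difference between regimes could be tested against one; whole seedlings also average over all tissues.

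PRR proteins carry a pseudo-receiver domain and a CCT domain and act mainly as transcriptional repressors. In the textbook clock their genes are expressed one after another through the day, PRR9 soon after dawn, then PRR7 and PRR5, with TOC1 around dusk. The proteins repress CCA1 and its partner LHY, while CCA1, which is abundant around dawn, represses TOC1. The link between CCA1 and TOC1 is thus a feedback loop between a morning and an evening component.

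CCA1 peaks were found at 4 of the 5 members in each regime, at TOC1, PRR5, PRR7 and PRR9. Over all 37899 nuclear genes of the reference table, the same kind of assignment gave a peak to 3.82% in LL, to 4.24% in LD and to 2.93% in both. PRR3 had no peak in either list. The 8 LL peaks and the 8 LD peaks formed 8 overlapping pairs, so every family site was called in both regimes. Over the whole lists 74.6% of LL peaks and 66.5% of LD peaks overlapped a peak of the other list by at least 1 bp. With an overlap of 50% of both peaks these shares were 69.7% and 62.2%, and 5 of the 8 family pairs met it. With centres within 500 bp they were 76.1% and 68.8%, and all 8 pairs met it. Of the 8 family peaks, 7 lay in the upper 50% of the list by score in each regime, and 6 lay in the upper 25%. The median family peak held 50.5 tags in LL, where the median of all peaks was 26, and 92 tags in LD, where it was 46. In each list 4 of these 8 peaks belonged to PRR5. A tag is 1 mapped sequence read within the peak.

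The highest peaks of the members followed the order TOC1, PRR5, PRR9, PRR7 in both regimes. In LL these peaks held 155, 119, 54 and 38 tags, and in LD they held 155, 129, 111 and 62. Neighbours in this order were compared by the ratio of their tags with its exact 95% interval, which covers counting error alone. In LL, PRR5 held 0.768 times the tags of TOC1 (0.599 to 0.981) and PRR9 0.454 times those of PRR5 (0.323 to 0.631), so both intervals lay below 1. PRR7 held 0.704 times the tags of PRR9 (0.452 to 1.09), an interval that includes 1. In LD the steps from TOC1 to PRR5 (0.832, 0.654 to 1.06) and from PRR5 to PRR9 (0.860, 0.662 to 1.12) lay within counting error, and PRR7 held 0.559 times the tags of PRR9 (0.403 to 0.769).

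**Figure D1:**
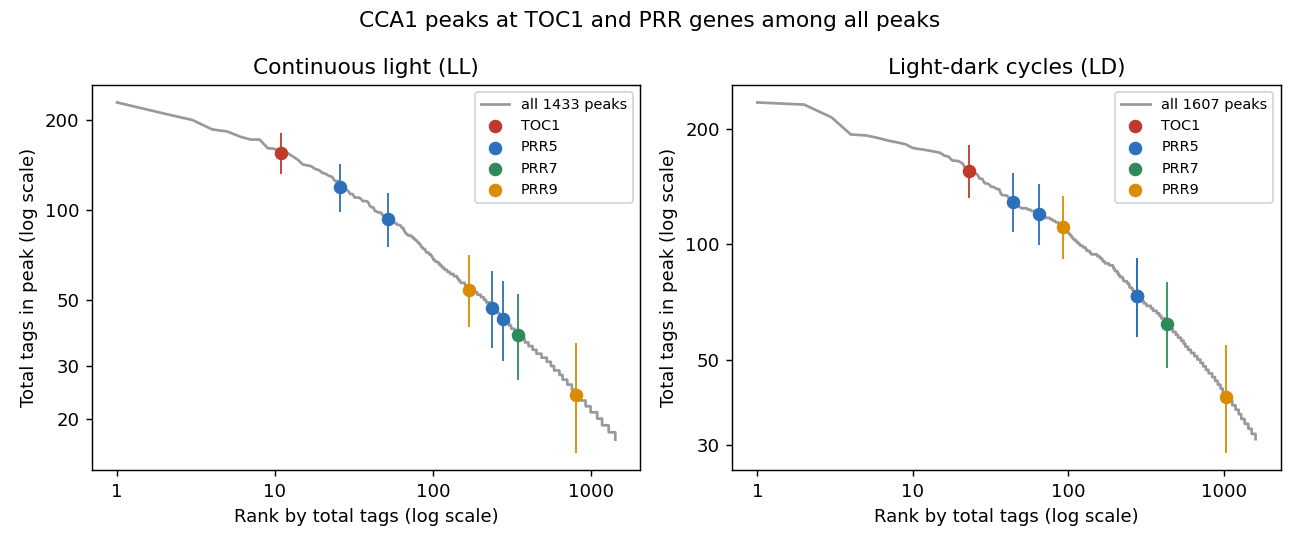
Total tags of every CCA1 peak against its rank in the list (both axes logarithmic), with 1433 peaks in LL and 1607 in LD. Coloured points are the peaks of TOC1, PRR5, PRR7 and PRR9 with exact 95% Poisson intervals; TOC1 stands highest of the family in both lists, with 155 tags, and 2 PRR5 peaks of 73 tags coincide in LD.

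TOC1 encodes a repressor of CCA1 and LHY that is most abundant in the evening. It carried a single peak per regime, in its promoter. In LL the peak lay on chromosome 5 from 24674711 to 24674869 (TAIR10), centred 274 bp before the transcription start site (TSS), with 155 tags and a score of 128. In LD it lay from 24674792 to 24674916, centred 210 bp upstream, with 155 tags and a score of 157. By score the site ranked 7 of 1433 peaks in LL and 22 of 1607 in LD.

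The TOC1 peak stood clear of both kinds of background. It was 88.0-fold over control in LL and 60.7-fold in LD, where the medians of all peaks were 13.6 and 14.8. Scaled control tags were 1.8 and 2.6, below the list medians of 2.1 and 3.2. Over the surrounding sequence it was 39.9-fold and 18.2-fold enriched, more than 96.7% of LL peaks and 85.1% of LD peaks. The LD centre lay 64 bp closer to the TSS than the LL centre, and the peaks shared 78 bp. That shift was larger than in 93.7% of the 1069 overlapping pairs of the series, whose median was 15 bp. The peaks were of fixed width, 158 bp in LL and 124 bp in LD, so the position of a peak rests on its centre alone.

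PRR5 encodes a repressor that acts in the afternoon and evening and is, like TOC1, a target of the F-box protein ZTL for degradation. Its gene carried 4 peaks in each regime, more than any other family member. Of the nearest genes with a peak, 0.306% in LL and 0.481% in LD had at least 4. Those genes numbered 4 in LL and 7 in LD, and included the ribosomal RNA gene AT3G41979 and, in LD, the pseudogenes AT3G33055 and AT4G06700. Median control tags over the peaks of PRR5 were 1.35 in LL and 1.60 in LD. At the other 3 LL genes they ran from 6.60 to 9.60. In LD, AT3G60520 had 2.45 and the remaining genes had 10.6 to 17.8.

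The highest PRR5 peak was centred 386 bp upstream of the TSS in LL and 370 bp upstream in LD. It lay on chromosome 5 from 8359180 to 8359338 in LL, with 119 tags, a score of 98 and 57.9-fold over control. In LD it lay from 8359181 to 8359305, with 129 tags, a score of 130 and 50.5-fold. These 2 centres differed by 16 bp. A further strong peak lay far upstream, in sequence the authors annotated as intergenic. In LL it spanned 8361060 to 8361218, 2266 bp upstream of the TSS, with 93 tags (95% interval 75.1 to 114). In LD it spanned 8361124 to 8361248, 2313 bp upstream, with 120 tags (99.5 to 143). The distal peak held 0.782 times the tags of the proximal peak in LL (exact 95% interval 0.589 to 1.03) and 0.930 times in LD (0.719 to 1.20), so their heights could not be separated by counting. The distal peak ranked 35 of 1433 by score in LL and 73 of 1607 in LD.

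The remaining PRR5 peaks were lower. The peak just inside the gene was centred 89 bp downstream of the TSS in LL with 43 tags (8358705 to 8358863) and 80 bp downstream in LD with 73 tags (8358731 to 8358855). The peak between the proximal and distal sites lay 1061 bp upstream in LL with 47 tags (8359855 to 8360013) and 943 bp upstream in LD with 73 tags (8359754 to 8359878). It was annotated as intergenic in LL and as promoter in LD. Its centres were 118 bp apart, more than in 99.5% of all overlapping pairs, and the peaks shared 24 bp. From the first to the last peak the centres spanned 2355 bp in LL and 2393 bp in LD. Neighbouring centres were 475, 675 and 1205 bp apart in LL, and 450, 573 and 1370 bp apart in LD.

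Summed over its 4 peaks PRR5 held 302 tags in LL (95% interval 269 to 338) and 395 in LD (357 to 436). By summed tags per nearest gene it ranked 4 of 1306 genes in LL and 2 of 1455 in LD. TOC1, with its single peak, ranked 22 and 41. PRR5 thus came below TOC1 by its highest peak and above it by the sum, and the sum depends on how the peak caller divided the region.

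The lower PRR5 peaks were enriched over control but little over their surroundings. In all, 4 of the 8 family peaks in LL and 5 of 8 in LD lay below the list median of fold over the local region. The peak 89 bp downstream was 36.6-fold over control in LL, yet 4.68-fold over the local region, with 12 of 1433 LL peaks lower. The peak 1061 bp upstream was 60.0-fold over control and 5.11-fold over the local region, with 23 LL peaks lower. In LD the local folds were 4.85 at 80 bp downstream and 4.77 at 943 bp upstream, against a list minimum of 4.02 and a median of 11.4. Both strong PRR5 peaks were also below that LD median, with 8.80 and 8.13, while in LL the proximal peak (14.8) was above the median of 12.9 and the distal peak (10.8) below it. The other PRR5 peaks lie in the same region; their part in these local folds was not tested. All 4 PRR5 peaks lay above 92.6% or more of LL peaks and 96.7% or more of LD peaks by fold over control. At the lower peaks these folds rest on few scaled control tags and carry no interval. The peak upstream had 0.8 control tags in LL and 1.5 in LD, and the peak inside the gene 1.2 and 1.3.

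**Figure D2:**
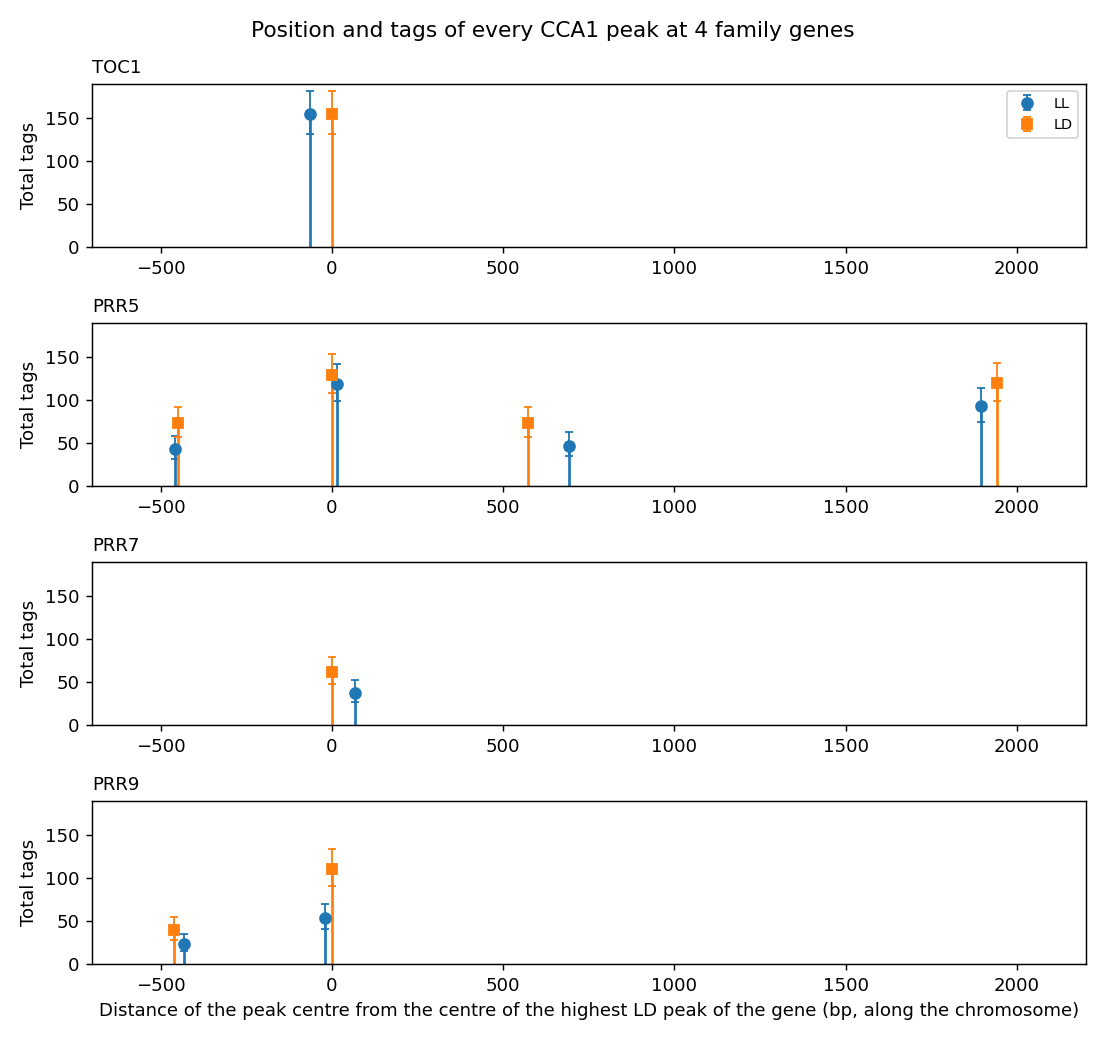
Total tags (95% Poisson intervals) of every family peak against the distance of its centre from the highest LD peak of the same gene, in bp along the chromosome, with LL as blue circles and LD as orange squares. TOC1 and PRR7 have 1 site each, PRR9 has 2 and PRR5 has 4, and each LL site has an LD partner within 118 bp.

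The sequence around the proximal PRR5 peak was unusually poor in G and C. In the 500 bp window that the authors annotated, GC content was 22.6% in LL and 21.8% in LD, where the medians over all peaks were 32.7% and 33.3%. Only 9 of 1433 LL peaks and 1 of 1607 LD peaks had a lower value. The other PRR5 windows had 32.1% to 35.9%, and TOC1 had 32.5% in LL and 33.9% in LD. The median over the 8 family windows was 32.6% in LL and 33.2% in LD, close to the list medians. The lower PRR9 site had 27.7% and 29.5%, the next lowest of the family, and PRR7 had the highest values, 38.1% and 38.3%.

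**Figure D3:**
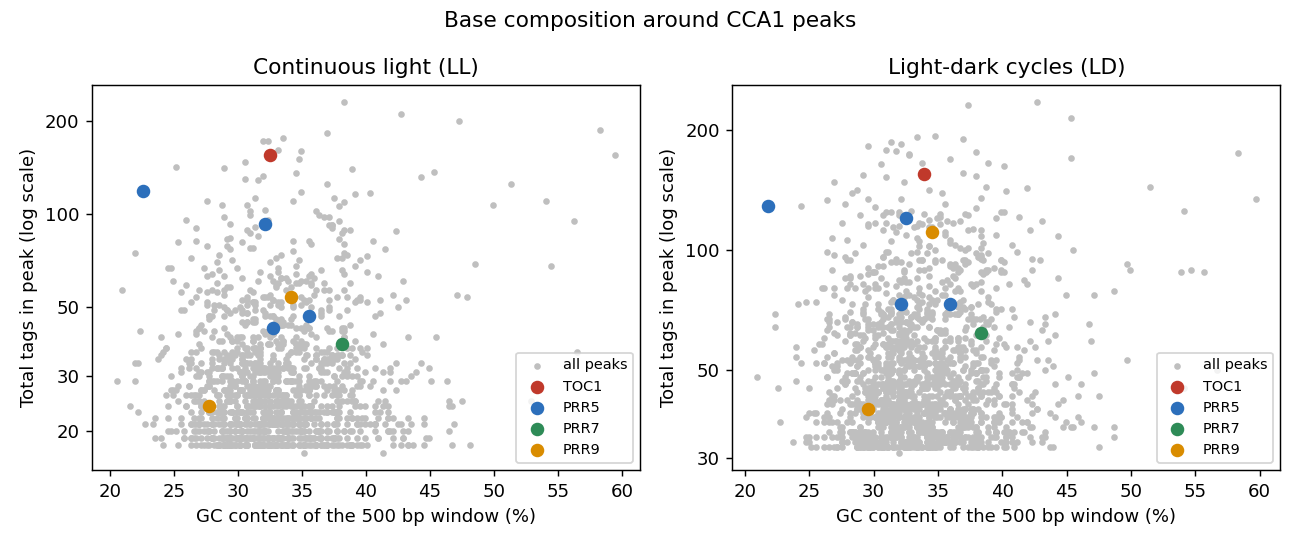
Total tags (logarithmic axis) against GC content (%) of the 500 bp window around each CCA1 peak, for LL and LD, with family peaks coloured by gene. The highest PRR5 peak sits at the left edge of both panels, at 22.6% and 21.8% GC.

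PRR7 encodes a repressor active around midday that works together with PRR9 and PRR5. It carried a single site that the lists assigned to different genes. In LD the peak lay on chromosome 5 from 641939 to 642063, centred 24 bp upstream of the PRR7 TSS, with 62 tags, a score of 64 and 22.4-fold over control. In LL it lay from 641989 to 642147 with 38 tags, a score of 35 and 24.3-fold over control. The authors' annotation placed the LL peak in the PRR7 promoter, but its nearest TSS was that of AT5G02811, 3 bp away. By the nearest promoter alone, 2 members had an LL peak and 3 an LD peak, beside 3.38% and 3.77% of all nuclear genes. The PRR7 centres were 67 bp apart and the peaks shared 75 bp. Its score was above 72.8% of LL peaks and 72.6% of LD peaks. Its control tags, 1.60 in LL and 2.80 in LD, were below the list medians.

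PRR9 encodes the earliest member of the daily series, a repressor expressed in the morning. It carried 2 sites (over the lists, 7.73% of nearest genes with an LL peak and 8.32% of those with an LD peak had at least 2), both annotated by the authors as PRR9 promoter and both nearest to the TSS of AT2G46787. For peaks in the promoter category whose annotated and nearest transcript were the same, centres reached 993 bp upstream and 99 bp downstream in LL, and 1000 bp upstream and 96 bp downstream in LD. Their distances to the PRR9 TSS itself were not used here. The higher site lay on chromosome 2 from 19232306 to 19232464 in LL, with 54 tags, a score of 50 and 27.6-fold over control. In LD it lay from 19232344 to 19232468, with 111 tags, a score of 112 and 29.0-fold.

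The lower PRR9 site was the weakest of the family. It spanned 19231895 to 19232053 in LL with 24 tags (95% interval 15.4 to 35.7) and a score of 24, and 19231883 to 19232007 in LD with 40 tags (28.6 to 54.5) and a score of 41. It was the single family site in the lower 50% of both lists, above 39.4% of LL peaks and 32.3% of LD peaks. Fold over control there was 9.08 (LL) and 7.84 (LD), below the list medians of 13.6 and 14.8, and its control tags, 2.6 and 5.1, were above the medians of 2.1 and 3.2. Its focus ratio, a HOMER measure of how well the tags fit a single point source, was 0.571 in LL and 0.634 in LD, with 1.12% of LL peaks and 4.92% of LD peaks lower. The PRR5 peak 943 bp upstream had a lower value in LD, 0.590. Over the local region the lower PRR9 site was 7.05-fold enriched in LL and 5.08-fold in LD, with 101 of 1433 and 35 of 1607 peaks lower. The PRR9 sites were 411 bp apart in LL and 461 bp apart in LD.

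PRR9 lies close to the CCA1 gene itself. The peak at the CCA1 promoter (89 tags in LL, 165 in LD) was centred 13073 bp from the higher PRR9 peak in LL and 13014 bp in LD. The plants also carried the CCA1 promoter in the GFP fusion, and its part in the tags of this peak was not tested. Among the 5 genes on each side of PRR9, CCA1 and AT2G46770 had an LL peak, and CCA1 and AT2G46800 had an LD peak. No gene among the 5 on each side of TOC1, PRR5 or PRR7 had a peak in the reference table's gene set, in which AT5G02811 and AT2G46787 do not appear.

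PRR3 encodes a protein known to stabilise TOC1 by limiting its interaction with ZTL. It was assigned no peak among 1433 in LL or 1607 in LD. Of the 5 genes on each side of PRR3, AT5G60120 had a peak in both lists, with 32 tags and a score of 30 in LL, 2014 bp upstream of that gene's TSS. In LD the AT5G60120 peak held 73 tags, with a score of 76, 2018 bp upstream. The lowest peak of the lists held 17 tags in LL and 31 in LD, so a PRR3 site below those levels could not be seen. The lowest fold over the local region was 4.18 in LL and 4.02 in LD, and each list was a kept top set. A PRR3 site with more tags could therefore also be missing.

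**Figure D4:**
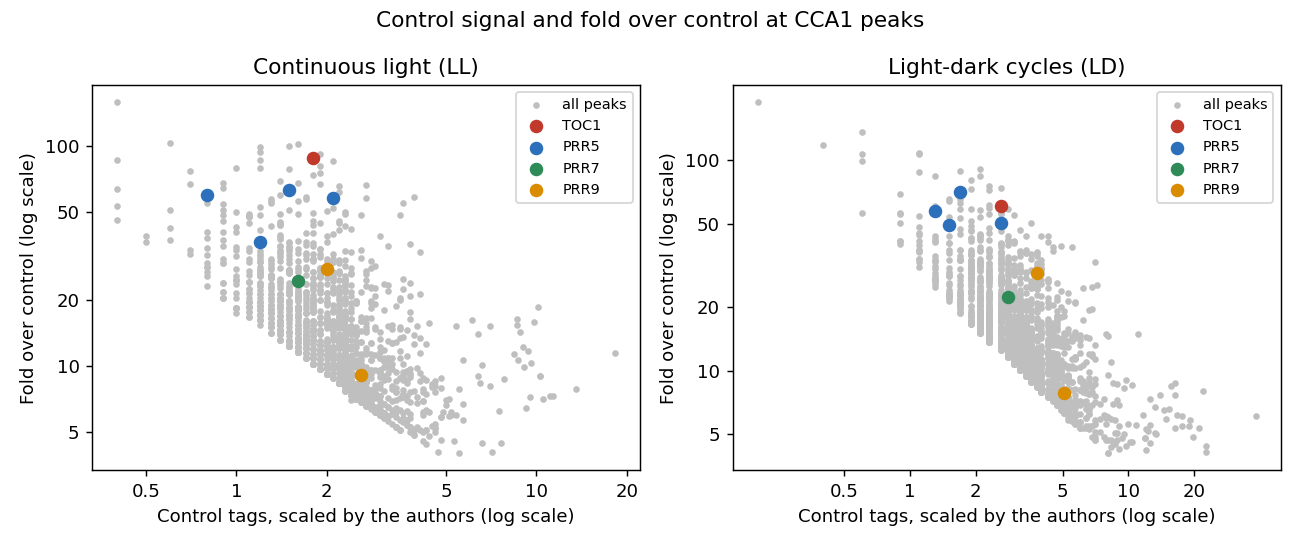
Fold over control against scaled control tags for every CCA1 peak (both axes logarithmic), with family peaks coloured by gene. TOC1 and the PRR5 peaks lie at high fold in both regimes, while the lower PRR9 peak has 9.08-fold in LL and 7.84-fold in LD. Control tags at TOC1 and PRR5 lie below the list median, except at the proximal PRR5 peak in LL, which equals it with 2.1.

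Control signal at the family was mostly below that of other peaks. In each list 7 of the 8 family peaks had a fold over control above the median of the list, and 6 of the 8 had fewer control tags than the median. The family median of that fold was 47.3 (LL) and 49.8 (LD). Of the 8 peaks in each list, 4 were PRR5 peaks, and these and TOC1 had the highest folds of the family. Fold over control at PRR7 was 24.3 (LL) and 22.4 (LD), and at the higher PRR9 site 27.6 and 29.0. The 1 family peak below the list median of fold was the lower PRR9 site in both regimes. By control tags the lower PRR9 site was joined by the higher PRR9 site in LD, with 3.80, and in LL by the proximal PRR5 peak, with 2.10, which equalled the median.

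Light regime was compared at the 8 sites through normalised tags, which are tags multiplied by 1 constant per list (7.48 in LL and 3.44 in LD). Normalised tags in LD divided by those in LL gave 0.460 at TOC1 (exact 95% interval from the tags 0.366 to 0.578), and 0.499 at the proximal PRR5 peak (0.386 to 0.645). The ratio was 0.594 at the distal PRR5 peak (0.449 to 0.787). It was 0.714 at the PRR5 peak about 1 kb upstream (0.489 to 1.05) and 0.781 at the PRR5 peak inside the gene (0.529 to 1.17). At PRR7 it was 0.751 (0.493 to 1.16). The higher PRR9 site had 0.946 (0.677 to 1.33) and the lower one 0.767 (0.451 to 1.33). TOC1 and both strong PRR5 peaks thus had the lowest ratios of the family and the higher PRR9 site the highest.

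Most pairs of the series also had a ratio below 1. The median over all 1069 pairs was 0.800 (quartiles 0.644 and 0.988), and 7 of the 8 family pairs lay below it. LD peaks were narrower than LL peaks, and per bp of peak width the median over all pairs was 1.02. Per bp the ratio was 0.586 at TOC1, 0.635 at the proximal PRR5 peak, 0.756 at the distal PRR5 peak and 1.20 at the higher PRR9 site. Strong pairs had lower ratios in general. In the highest of 4 classes by mean normalised tags the median was 0.669 (quartiles 0.552 and 0.858, 267 pairs). Within that class the ratio at TOC1 was above that of 8.24% of pairs, that at the proximal PRR5 peak above 15.4%, and that at the higher PRR9 site above 81.6%. The other PRR5 pairs were in the same class, above 31.5% (distal), 55.4% (about 1 kb upstream) and 67.4% (inside the gene) of its pairs. PRR7 was above 41.2% of the third class and the lower PRR9 site above 34.2% of the lowest. Family pairs thus lay on both sides of the median of their class. The low TOC1 ratio is therefore given as a description of 2 pooled lists, and whether it differs from other strong sites beyond the spread between plants was not tested.

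**Figure D5:**
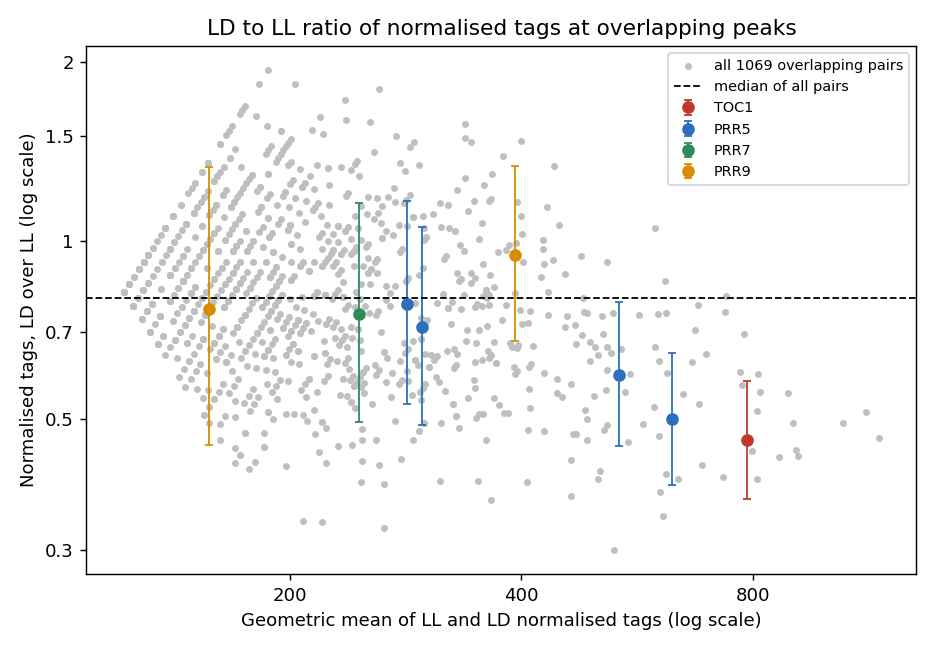
Ratio of LD to LL normalised tags against the geometric mean of both (logarithmic axes) for all 1069 overlapping pairs, with the 8 family pairs coloured and shown with exact 95% intervals; the dashed line is the median, 0.800. TOC1 has 0.460 and the higher PRR9 site has 0.946.

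The members were also set against TOC1 within the same list, which removes the constant of the list. TOC1 had the lowest LD to LL ratio of the family, so a typical site has a higher ratio. The median ratio of all pairs was 1.74 times that of TOC1, and the ratio at the higher PRR9 site was 2.06 times, at PRR7 1.63 times and at the proximal PRR5 peak 1.08 times that of TOC1. The ratio at the higher PRR9 site was above that of 69.7% of all pairs. That PRR9 peak held 0.348 times the tags of TOC1 in LL (exact 95% interval 0.251 to 0.478) and 0.716 times in LD (0.556 to 0.920). For PRR7 the values were 0.245 (0.167 to 0.352) and 0.400 (0.293 to 0.540). These intervals hold counting error alone, and peak width and the spread between libraries are not in them.

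Other genes that act with the PRR proteins were read from a list of 30 partners, regulators and targets. Of these, 14 had a peak in LL and 14 in LD (46.7% in each, beside 3.82% and 4.24% of all nuclear genes), 13 of them in both. The list was drawn up with earlier results of these data known, so the counts are a description. Tags given for a list gene are those of its highest peak in each list, and further peaks are not added. They are raw counts, and 1 tag stood for 7.48 normalised tags in LL and 3.44 in LD. LL and LD tags of a list gene therefore do not compare regimes. FKF1, a blue-light receptor of the ZTL family that targets flowering repressors for degradation, had 151 tags in LL (the higher of 2 peaks) and 169 in LD (1 peak). LKP2, its relative, had 28 tags in LL and no LD peak, and ZTL, which degrades TOC1 and PRR5, had none in either list. GI, which stabilises ZTL, had a peak of 117 and 140 tags in the promoter that the authors annotated as its own.

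Of the genes that the PRR proteins repress, CCA1 had a peak in both lists, and LHY had 40 tags in LD and no LL peak. By score the LHY peak stood above 32.3% of LD peaks. Whether a peak listed in 1 regime alone reflects that regime was not tested. Evening complex genes were mixed: ELF3 (43 and 130 tags), LUX (63 and 99) and BOA (48 and 90) had peaks in both lists, and ELF4 had none. For ELF3 the LL value is that of the higher of 2 peaks, where LD had 1 peak. The LUX peak given was annotated as LUX promoter, although its nearest TSS was that of AT3G46630. CHE, a TCP factor that interacts with TOC1, had 54 tags in LL and 134 in LD. COR27 (172 and 148 tags) and COR28 (141 and 182), small regulators of the clock and of cold tolerance, had peaks in both lists as well. WNK1, a kinase that phosphorylates PRR3, had 19 tags in LL and 57 in LD, so the partner of PRR3 was listed although PRR3 was not. By score the WNK1 peak stood above 9.21% of LL peaks and 68.8% of LD peaks. In LL it was thus near the lowest listed peak, which held 17 tags.

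PIF5, PIF4 and CDF1, growth and flowering regulators among PRR targets, had peaks in both lists. PIF5 held 129 and 84 tags, PIF4 25 and 36, and CDF1 37 and 46. For PIF4 and CDF1 the LL and LD tags also belong to different sites. The PIF4 peak given was nearest to AT2G43020 in LL and to PIF4 itself in LD. The CDF1 peak given had a distance to the TSS of -428 bp in LL and -36 bp in LD, where upstream is negative. CDF1 had 1 peak in LL and 3 in LD. No peak was found at PIF3 or CO. The activators RVE4, RVE6 and RVE8 and their cofactors LNK1 and LNK2, which raise PRR5 and TOC1 expression, had none. The co-repressor TPL, the histone deacetylase genes HDA6 and HDA19, the methyltransferase gene PRMT5, and the light signalling genes FHY3 and HY5 had none either. Among 4 pseudo-response regulator genes outside the clock family, APRR2 had an LL peak of 31 tags, 4088 bp downstream of its TSS, and no LD peak. APRR4, APRR6 and APRR8 had none.

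The genes most like each member in rank were found among 998 genes with a peak in both lists, by the distance between the score percentiles of their highest peaks over the 2 lists. Nearest to TOC1 were BBX8 (scores 128 and 154 in LL and LD), DREB2A (124 and 165) and COR27 (131 and 152), at 0.187, 0.280 and 0.325 percentile points. Nearest to PRR5 were AT3G60380 (96 and 141), AT3G13120 (93 and 141) and HXK2 (122 and 134), at 0.598, 0.626 and 0.995 points. PRR9 was closest to AOX1A (49 and 115), emb2746 (50 and 121) and AGL26 (48 and 110), at 0.791 to 1.62 points. PRR7 was closest to AT5G12950 (35 and 62), AT4G06710 (36 and 63) and AT1G02620 (34 and 64), at 1.74 to 2.02 points. Likeness here is of peak rank in 2 lists and says nothing of position or function.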

How the data were processed

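Per the labels' protocols, fixation was with 1% formaldehyde (20 min), and IgG and input material served as controls for the anti-GFP precipitation. The submitters' processing notes name TAIR10 and the tools HOMER 4.7, Bowtie2 2.2.1, Trimmomatic 0.33 and CASAVA 1.8. Per the file headers, each list came from an irreproducible discovery rate step on combined libraries, of which the top set was kept. The deposited values used, per the file headers, were the count of tags per peak, normalised tags and scaled control tags (signals), the findPeaks score, the fold ratios over control and over the local region, and the focus ratio and GC content (fractions). The nearest TSS and its distance from the peak centre came from HOMER's annotation, and GC content was that of a 500 bp window. The control library used, any removal of duplicates and the threshold: not given in the sources used here.

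Peaks were joined to genes and compared with Python 3.11.15, pandas 2.3.3, NumPy 2.4.6 and SciPy 1.17.1, and overlap was set at 1 bp. Functions for overlap and intervals were tested on simulated data. No test against replicates was possible, because lists are pooled. Intervals are 95% exact Poisson intervals for tags and exact conditional intervals for ratios of tags. They cover counting error alone and treat each tag as independent. Amplified tags are not independent molecules, so the intervals may be too narrow. Total tags per library were not used here; the lists held 17 to 229 tags per peak in LL and 31 to 234 in LD. Gene names came from RefSeq (TAIR10.1), and 34 of the 34 list identifiers matched. Its chromosomes and gene starts served only to pick the nuclear genes and the 5 genes on each side of a member. No peak position or distance to a TSS was taken from it. All 5 members, every peak of theirs, the list genes and the 3 genes nearest in rank were named by rule. AT5G60120, the genes with at least 4 peaks and the peaked neighbours of PRR9 were named after their values were seen. The members and lists were chosen with earlier results of these data known. The strength classes, local fold, GC content and ratios to TOC1 were looked at after the values were seen. The planned motif search was not run, since no sequence was used here.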

Additional observations from a re-analysis of the deposited data

How the results depend on the processing

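No paired analysis was possible because each regime is a pooled list and no comparison has replicates; for the same reason no replicate could be left out. With the nearest promoter alone, 2 members had an LL peak and 3 an LD peak, in place of 4, because the PRR9 peaks and the LL peak at PRR7 were then assigned to AT2G46787 and AT5G02811. With an overlap of 50% of both peaks, 5 of the 8 family pairs stayed shared in either direction; the pairs at TOC1 and PRR7 and the PRR5 pair about 1 kb upstream fell below it. With centres within 500 bp all 8 stayed, and among the upper 50% of both lists 7 did. Ranked by fold over control, PRR7 stood above 81.9% of LL peaks and 74.9% of LD peaks (72.8% and 72.6% by score), and PRR9 above 85.1% of LD peaks (94.2% by score). Ranked by total tags, none of the 8 highest peaks left the 95% Wilson interval of its score percentile. Per bp of peak width the ratio of LD to LL at TOC1 was 0.586 in place of 0.460, and the other 7 ratios stayed within their counting intervals. Peaks with fewer tags than the lowest listed, 17 in LL and 31 in LD, are beyond these data.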
